A study of Mus musculus with 34 samples.

Results

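The genes described here are 33 mouse genes of glycolysis and of the response to low oxygen, followed through every library of a study of the long non-coding RNA Evx1as. They were taken by symbol from a list made with earlier results of these data known. It holds 2 glucose transporters, 15 glycolytic enzymes, 6 genes that handle pyruvate and lactate, and 10 genes induced by hypoxia. All 33 were found among the 37145 genes of the culture tables and the 46785 genes of the embryo section tables. Pkm is listed as Pkm2 and Hilpda as 2310016C08Rik in the culture tables, and both were matched by Ensembl identifier. RNA was sequenced to follow Evx1as in the patterning of the embryo. Of 34 samples, 30 had a table here, and 4 pieces of posterior embryo were not analysed here.

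The cultures were embryonic stem cells of the line CJ9 (strain 129S1/SVImJ) grown to day 4 without LIF (leukemia inhibitory factor), which when present keeps such cells from differentiating. There were 3 wild-type libraries and 3 from the line labelled 4x polyA KI, called the knock-in below. The labels do not say whether the knock-in is 1 clone, nor whether the libraries of a group are separate cultures, so p-values measure only the spread between these libraries, which may be technical. The sections came from C57/B6 embryos at embryonic day 7, cut frozen and processed by Geo-seq, a method for small captured regions. They were labelled heterozygous (Evx1as+/-) or homozygous (Evx1as-/-), so both section groups carry a mutant allele and no wild-type embryo is among them. Streak sections numbered 6 heterozygous and 5 homozygous, and mesoderm sections 3 and 5, each with a layer number from 1 to 11. There was 1 anterior epiblast piece per genotype, from layers 4 to 6. The titles and cell type labels of 3 further sections name different regions, and these were kept out of the groups. Which embryo a section came from is not in the labels, so some sections may share an embryo, and where they do the p-values over sections given below are too small.

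Cells take up glucose through the transporters Slc2a1 (GLUT1) and Slc2a3 (GLUT3). The glycolytic enzymes then turn glucose into pyruvate, Ldha reduces pyruvate to lactate, and the transporters Slc16a1 (MCT1) and Slc16a3 (MCT4) carry lactate across the membrane. When oxygen is low, the factor HIF1 escapes hydroxylation by Egln1 and its relatives, binds short motifs around the core RCGTG, and raises many glycolytic genes along with genes such as Bnip3, Ndrg1, Egln3 and Ddit4. Cells of the early embryo use glycolysis heavily, and the mix of isoforms is known to change as pluripotent cells differentiate.

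Values are FPKM (sequenced fragments scaled by transcript length and by the number of mapped fragments), which can be compared between genes per unit of length but not between cultures and sections, whose tables rest on different annotations. Changes are differences of log2(FPKM + 1), which understate the change of low genes. A gene was called past the threshold where limma's Benjamini-Hochberg adjusted p was under 0.05 over all genes tested. Summed FPKM ran from 502990 to 582184 in the cultures and from 132929 to 376860 in the sections. The absolute depth is unknown. From the steps that single reads leave in the lowest values, depth relative to 1 library of each set ran from 0.633 to 1.09 in the cultures and from 0.354 to 1.57 in the sections. Evx1as (5730457N03Rik) was at 3.94 to 5.99 FPKM in the wild-type cultures and 0.0674 to 0.137 in the knock-in, and its neighbour Evx1 at 24.4 to 38.6 and 0.848 to 2.83. In streak sections Evx1as was at 0 to 4.57 FPKM in the heterozygous and 0 to 0.159 in the homozygous group, so these levels overlap.

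In the knock-in cultures, enzymes of glycolysis and of lactate production were higher and the 2 main glucose transporters lower than in wild type. Of 33 members tested, 18 were higher and 2 lower past the threshold, where 16.2% of the 13133 genes tested were higher and 16.2% lower. The median change of the members was 0.54 on the log2 scale and that of all genes 0.02. The 2 groups did not overlap at 19 members that were higher and 3 that were lower in the knock-in. Among all genes tested 48.4% did not overlap in one direction or the other, and 24.4% with the knock-in higher. The members thus have to be read against a background in which 32.4% of all genes passed the threshold.

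**Figure D1:**
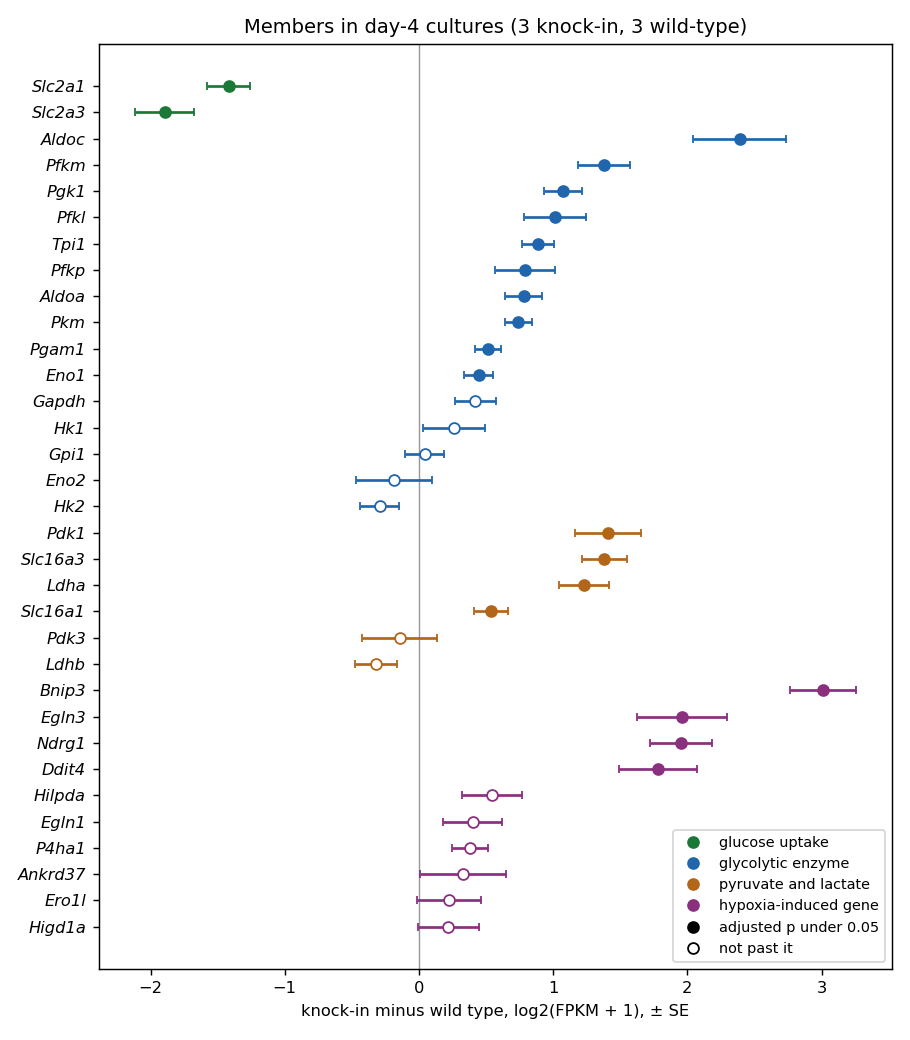
Difference between 3 knock-in and 3 wild-type cultures for each of the 33 members, in log2(FPKM + 1) with its standard error (SE), ordered by role. Filled points passed an adjusted p of 0.05. Slc2a1 and Slc2a3 lie at -1.42 and -1.90, and Bnip3 lies highest at 3.01.

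Both glucose transporters fell in the knock-in. Slc2a1, the transporter found in most cell types (chr4:119108711-119137983 in the mm10 coordinates of the section tables), was at 371, 394 and 263 FPKM in wild type and at 120, 130 and 128 in the knock-in. Its log2 change was -1.42 ± 0.16 (SE, n = 3 and 3; limma adjusted p = 0.000833). Slc2a3, a transporter with high affinity for glucose (chr6:122727809-122742745), was at 591, 567 and 358 FPKM in wild type and at 155, 140 and 105 in the knock-in. The groups did not overlap at either gene, and the log2 change of Slc2a3 was -1.90 ± 0.22 (limma adjusted p = 0.00100). Slc2a3 made up 59.3% ± 1.93 (SD, n = 3) of the summed FPKM of the pair in wild type and 51.2% ± 5.68 (n = 3) in the knock-in, a difference that was not tested.

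Of the 15 glycolytic enzymes, 10 rose and none fell past the threshold, with a median log2 change of 0.74. The first steps did not pass the threshold. Hk2, the hexokinase that phosphorylates glucose in most embryonic cells, was at 27, 26.8 and 34.6 FPKM in wild type and at 24.7, 25.3 and 21.3 in the knock-in (log2 change -0.29 ± 0.15; limma adjusted p = 0.164). Hk1, the other hexokinase of the list, was lower throughout, at 4.27 to 6.00 FPKM in wild type and 4.19 to 7.86 in the knock-in, with overlapping groups. Gpi1, which isomerises glucose 6-phosphate, had a change of 0.04 ± 0.14 (limma adjusted p = 0.846).

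All 3 phosphofructokinase isoforms, which catalyse the committed step, rose. Pfkl was the most abundant, at 31.8, 57.0 and 52.0 FPKM in wild type and 112, 79.8 and 90.2 in the knock-in. Pfkm, the muscle type, had the larger change, from 2.73, 2.48 and 4.19 FPKM to 10.8, 9.38 and 8.62 (1.38 ± 0.20; limma adjusted p = 0.00209). Pfkl kept a like share of the 3 isoforms, 83.0% ± 3.34 (SD, n = 3) in wild type and 81.7% ± 1.96 (n = 3) in the knock-in. Pfkp was at 5.19 to 7.56 and 8.75 to 15.4 FPKM, and its call (0.79 ± 0.23; limma adjusted p = 0.0310) was lost when 1 of wild-type replicates 1 and 3 or knock-in replicates 1 and 2 was left out (0.0698 to 0.0897). It was also lost with no filter on low values (0.0881), as was that of Pfkl (0.0569). In the cultures Senp1 overlaps Pfkm and was at 17.5 to 29.6 FPKM, and Pitrm1 overlaps Pfkp and was at 4.17 to 5.91. Reads of these pairs may be divided between the genes.

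The 2 aldolases, which split fructose 1,6-bisphosphate, changed to different extents. Aldoc, the isoform best known from brain, was at 2.30, 2.23 and 4.46 FPKM in wild type and at 25.8, 25.0 and 11.0 in the knock-in (2.39 ± 0.35; limma adjusted p = 0.00232). Aldoa, the common isoform, was at 318, 351 and 441 FPKM and at 682, 629 and 582 (0.78 ± 0.14; limma adjusted p = 0.00521). Aldoc still made up only 3.11% ± 1.10 (SD, n = 3) of the pair in the knock-in, against 0.783% ± 0.194 (n = 3) in wild type.

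Several enzymes after the aldolase step also rose. Tpi1, which interconverts the triose phosphates, went from 145, 160 and 182 FPKM to 323, 302 and 277 (0.89 ± 0.12; limma adjusted p = 0.00169). Pkm, the pyruvate kinase of embryonic cells, went from 672, 766 and 794 FPKM to 1262, 1264 and 1198 (0.74 ± 0.10; limma adjusted p = 0.00158). Neither pair of groups overlapped. Pgam1, the phosphoglycerate mutase, rose by 0.52 ± 0.10, and Eno1, the common enolase, by 0.44 ± 0.11. The call of Eno1 (limma adjusted p = 0.0188) was lost without knock-in replicate 1 or 2, or without wild-type replicate 1 or 2, with adjusted p from 0.0547 to 0.0693, and with no filter (0.0503) or with the replicate number as a block (0.0681). Eno2, the neuronal enolase, was at 2.03 to 5.49 FPKM over the 6 libraries and its groups overlapped.

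Gapdh, the dehydrogenase often used as a reference gene, was at 776, 714 and 984 FPKM in wild type and 943, 1127 and 1228 in the knock-in. The groups overlapped, and its change of 0.42 ± 0.15 did not pass (limma adjusted p = 0.0671). Pgk1, which makes the first ATP of the pathway, was listed at only 4.09 to 4.92 FPKM in wild type and 10.2 to 11.5 in the knock-in (1.07 ± 0.14; limma adjusted p = 0.00158).

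Such low values of Pgk1 go with reads assigned to near-identical copies. In the cultures 8 members have such copies, defined as other genes that match the longest coding transcript at 95% identity or more over at least 300 bases. For Pgk1 the member itself holds 1.59% of the summed mean FPKM in wild type, and for Eno1 18.7%. With the copies added, Pgk1 was at 286 ± 17.5 FPKM (SD, n = 3) in wild type and 847 ± 181 (n = 3) in the knock-in, a log2 change of 1.54 ± 0.16 (limma adjusted p = 0.000718). Gapdh then passed the threshold, at 0.34 ± 0.10 (limma adjusted p = 0.0384), and 19 members rose and 2 fell. The copies Pgk1-rs7 and Gm5537 of Pgk1 had near-equal medians over the cultures, at 231 and 233 FPKM. How the authors' counting divided the reads, or whether it listed some at more than 1 gene, cannot be told from the tables. The level of each of these 8 members alone, and of its sum with copies, is therefore uncertain.

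**Figure D2:**
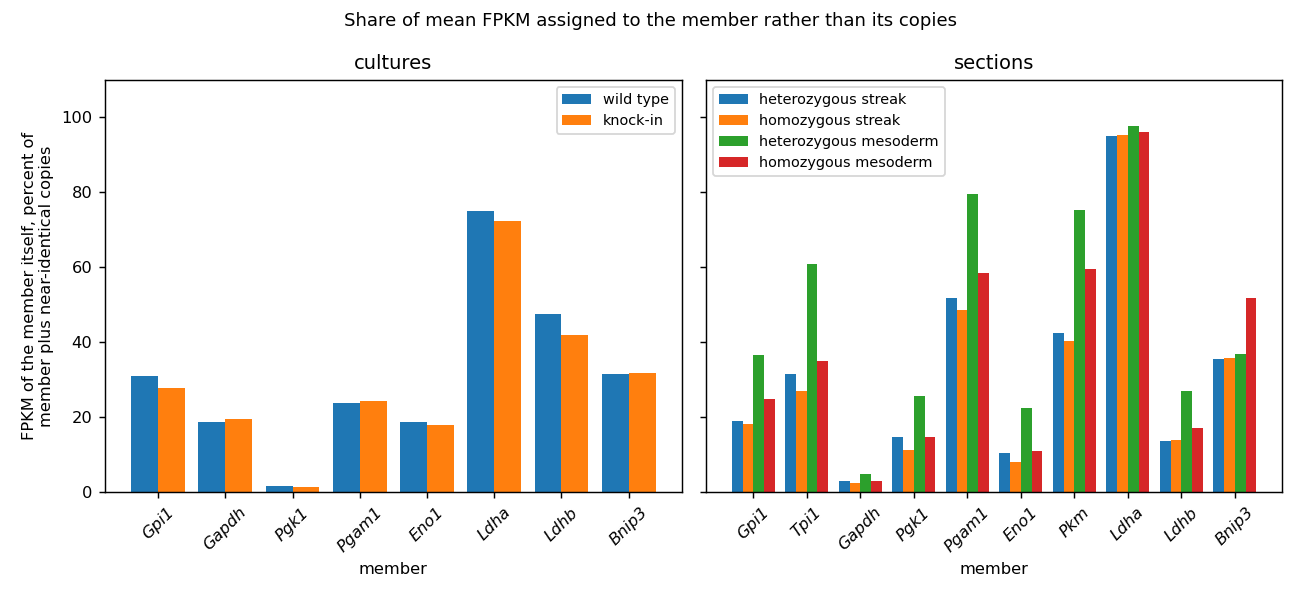
Percent of mean FPKM, member plus near-identical copies, that the tables assign to the member itself, by group. In wild-type cultures the share runs from 1.59% for Pgk1 to 74.9% for Ldha, and in heterozygous mesoderm sections it is 60.8% for Tpi1 against 31.6% in heterozygous streak.

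Of the 6 genes that handle pyruvate and lactate, 4 rose and none fell. Ldha, the lactate dehydrogenase subunit that favours lactate, went from 216, 265 and 343 FPKM to 708, 675 and 534 (1.23 ± 0.18; limma adjusted p = 0.00262). Ldhb, the subunit that favours pyruvate, was at 51.9 to 70.8 FPKM in wild type and 44.3 to 56.0 in the knock-in, with overlapping groups. Its share of the 2 subunits was 19.4% ± 5.85 (SD, n = 3) in wild type and 7.48% ± 1.84 (n = 3) in the knock-in, which was not tested.

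Slc16a3, the lactate exporter of glycolytic cells, went from 80.1, 103 and 126.2 FPKM to 249, 259 and 289 (1.38 ± 0.17; limma adjusted p = 0.00113). Slc16a1 changed less, from 11.9, 12.1 and 13.1 FPKM to 18.3, 19.9 and 17.1, and its call (0.54 ± 0.13; limma adjusted p = 0.0152) was lost without knock-in replicate 2 (0.0668) or wild-type replicate 1 (0.0542) and with the replicate block (0.0534). Pdk1, a kinase that switches off pyruvate dehydrogenase and so keeps pyruvate out of the citric acid cycle, went from 13.7, 18.0 and 13.0 FPKM to 55.4, 43.3 and 28.3 (1.41 ± 0.25; limma adjusted p = 0.00485). Its relative Pdk3 had overlapping groups, at 9.50 to 20.0 and 9.76 to 15.2 FPKM.

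**Figure D3:**
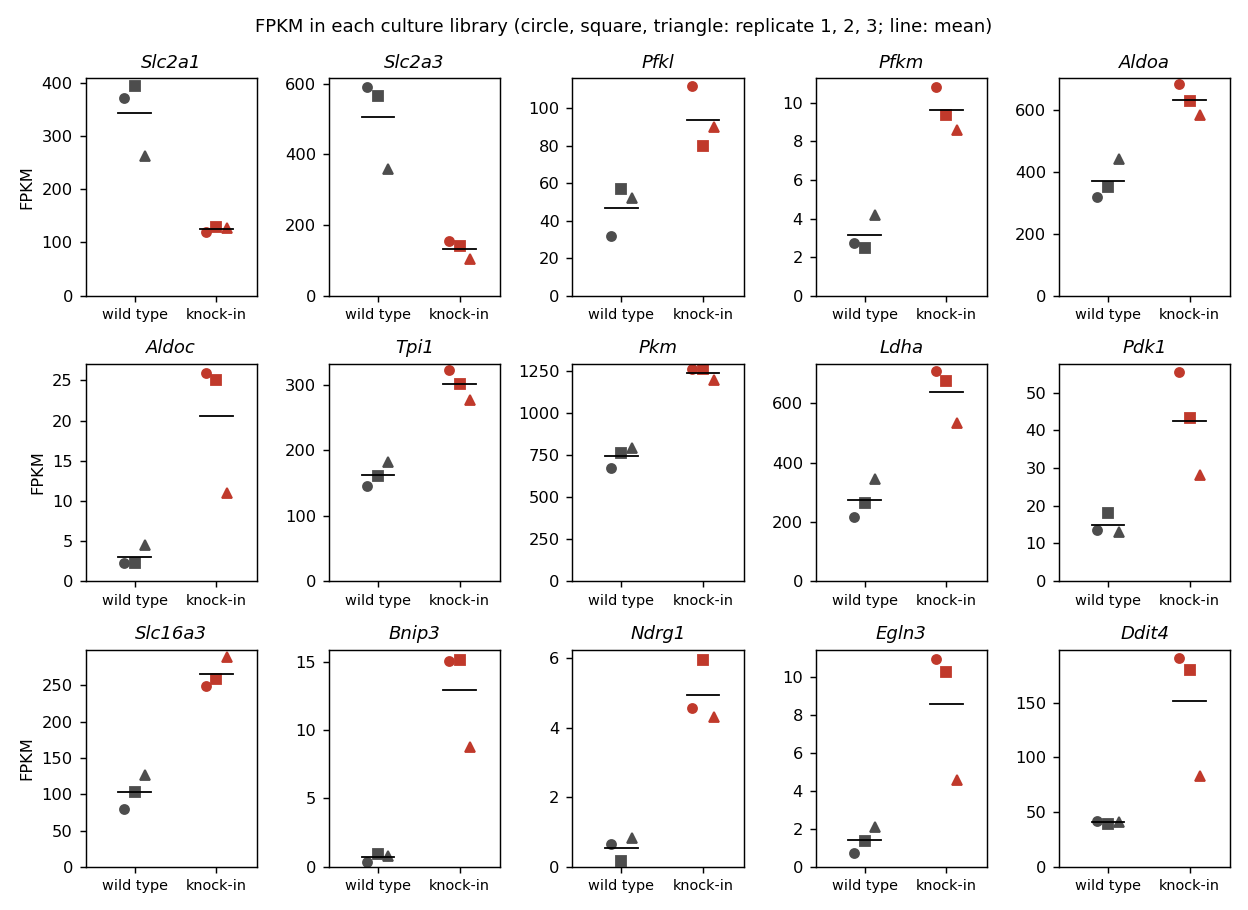
FPKM of 15 members in each culture library, with linear axes from 0, points for the 3 replicates of each group and a line at the group mean. At all 15 the groups are apart, and for Aldoc, Pdk1, Bnip3, Egln3 and Ddit4 knock-in replicate 3 (triangle) lies well below the other 2.

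Of the 10 hypoxia-induced genes, 4 rose, none fell, and 6 did not pass. Bnip3, which marks mitochondria for removal (chr7:138890836-138909506), was under 1 FPKM in wild type, at 0.388, 0.917 and 0.798. In the knock-in it was at 15.0, 15.1 and 8.72 FPKM. Its change of 3.01 ± 0.25 (limma adjusted p = 0.000302) was the largest among the members. Its near-identical copy Gm16439 moved with it, and the sum of both was 2.23 ± 0.114 FPKM (SD, n = 3) in wild type and 40.6 ± 16.1 (n = 3) in the knock-in.

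Ddit4 (REDD1), an inhibitor of the growth kinase mTORC1 that stress of several kinds induces, was at 41.5, 39.2 and 41.0 FPKM in wild type and at 191, 180 and 83.3 in the knock-in (1.78 ± 0.29; limma adjusted p = 0.00360). Egln3, a hydroxylase of the HIF alpha subunits that HIF itself induces, went from 0.740, 1.36 and 2.09 FPKM to 10.9, 10.2 and 4.57 (1.96 ± 0.34; limma adjusted p = 0.00456). Ndrg1, a gene raised by hypoxia and by differentiation (chr15:66929321-66969640), went from 0.668, 0.174 and 0.813 FPKM to 4.57, 5.95 and 4.30 (1.95 ± 0.23; limma adjusted p = 0.00101). The groups of these genes did not overlap. The transcript Gm17035 overlaps Ndrg1 and was at 4.97 to 8.64 FPKM in wild type and 27.2 to 48.1 in the knock-in, so the reads of the pair may be divided between them.

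The other hypoxia-induced genes gave small positive differences. P4ha1, a collagen prolyl hydroxylase, was at 6.59 to 7.48 FPKM in wild type and 9.39 to 9.84 in the knock-in, which do not overlap, but did not pass (0.38 ± 0.13; limma adjusted p = 0.0608), except with no filter (0.0426). Hilpda, a lipid droplet protein, was at 6.30 to 10.3 and 8.92 to 13.5 FPKM (0.54 ± 0.22; limma adjusted p = 0.0984) and passed without wild-type replicate 2 (0.0419). Egln1, the main HIF hydroxylase, was at 11.6 to 12.3 and 11.1 to 20.5 FPKM (0.40 ± 0.22; limma adjusted p = 0.197) and passed without knock-in replicate 3 (0.0138). Ankrd37, Ero1l, an oxidase of the endoplasmic reticulum, and Higd1a, a mitochondrial protein, had overlapping groups and changes of 0.22 to 0.33.

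The 3 knock-in libraries were not alike at these genes. Knock-in replicate 3 had the lowest of the 3 values at 24 of 33 members and at 8 of the 10 hypoxia-induced genes, against 37.8% of all genes tested. It also had the highest summed level of the 6 primitive streak markers among the knock-in libraries, at 138 FPKM against 102 and 113, and the highest Evx1. Without it, 19 members rose and 2 fell.

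The promoters below show what sequence stood before the members with the largest rises. They are the 3 hypoxia-induced genes and the 2 glycolytic enzymes with the largest log2 change among those that rose and have an entry in the RefSeq promoter table (GRCm38.p6), each from 250 bases before to 50 after the start, on the gene's own strand. Capitals mark matches to ACGTG or GCGTG on either strand, the core letters of the HIF motif. Bnip3 is at chr7:138909457-138909756 (minus strand), Egln3 at chr12:54203825-54204124 (minus), Ddit4 at chr10:59951721-59952020 (minus), Aldoc at chr11:78322823-78323122 (plus) and Pfkm at chr15:98092339-98092638 (plus). For Aldoc the first of 2 entries and for Pfkm the first of 4 is shown.
Bnip3: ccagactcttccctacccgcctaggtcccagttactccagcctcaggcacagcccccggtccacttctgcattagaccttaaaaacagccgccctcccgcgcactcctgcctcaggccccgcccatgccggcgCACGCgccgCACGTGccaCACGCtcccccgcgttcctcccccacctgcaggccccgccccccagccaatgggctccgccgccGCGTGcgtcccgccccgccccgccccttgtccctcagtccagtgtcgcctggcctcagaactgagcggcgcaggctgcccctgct
Egln3: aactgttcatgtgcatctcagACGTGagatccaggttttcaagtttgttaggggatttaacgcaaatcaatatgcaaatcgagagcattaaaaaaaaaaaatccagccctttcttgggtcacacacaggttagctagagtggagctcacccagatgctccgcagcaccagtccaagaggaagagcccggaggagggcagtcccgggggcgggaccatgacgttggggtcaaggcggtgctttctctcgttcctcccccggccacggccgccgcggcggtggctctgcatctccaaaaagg
Ddit4: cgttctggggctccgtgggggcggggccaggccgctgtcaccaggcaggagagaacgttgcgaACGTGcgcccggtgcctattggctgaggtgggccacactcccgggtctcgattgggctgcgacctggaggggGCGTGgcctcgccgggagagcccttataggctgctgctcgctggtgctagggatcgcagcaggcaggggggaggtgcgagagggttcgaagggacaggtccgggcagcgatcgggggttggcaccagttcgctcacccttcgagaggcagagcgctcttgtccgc
Aldoc: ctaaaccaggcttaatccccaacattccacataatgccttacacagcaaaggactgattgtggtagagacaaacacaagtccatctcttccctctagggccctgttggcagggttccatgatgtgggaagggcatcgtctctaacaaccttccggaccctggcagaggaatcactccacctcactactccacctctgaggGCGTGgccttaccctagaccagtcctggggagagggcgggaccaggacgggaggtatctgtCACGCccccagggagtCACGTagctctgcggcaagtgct
Pfkm: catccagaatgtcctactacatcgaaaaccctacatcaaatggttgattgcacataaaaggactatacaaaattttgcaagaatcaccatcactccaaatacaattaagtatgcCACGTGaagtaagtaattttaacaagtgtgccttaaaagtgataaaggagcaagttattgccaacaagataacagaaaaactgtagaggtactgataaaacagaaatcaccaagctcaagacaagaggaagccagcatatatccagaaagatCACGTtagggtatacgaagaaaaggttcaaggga
The window of Bnip3 holds 5 matches, that of Egln3 1, that of Ddit4 2, and those of Aldoc and Pfkm 3 each. In Bnip3 and in Pfkm, 2 of the matches are the 2 strands of 1 palindrome, CACGTG. Of 43 promoter entries of 30 members, 35 (81.4%) hold at least 1 match, against 43.8% of 32851 promoters of the same length. ACGTG alone is in 55.8% and 19.6%, and GCGTG in 62.8% and 32.4%. The share was 82.1% for the 28 entries of members that rose and 80.0% for the 15 entries of the other members. All 9 entries of hypoxia-induced members hold a match. The members were listed as glycolysis and hypoxia genes, and some count with more than 1 entry. Their excess over all promoters therefore goes with the choice of list and is no result of these libraries. A match is a string of letters and no evidence of binding.

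Other genes of the same pathways were counted over lists also made with earlier results of these data known. These counts stand beside the 32.4% of all genes that passed. Of 10 measured HIF subunits and regulators, 1 rose and 1 fell. Cited2, which competes with HIF for its coactivators, fell from 350 ± 43.1 to 98.0 ± 15.4 FPKM (SD, n = 3 each; log2 change -1.83; limma adjusted p = 0.000298). Hif3a, a relative that can restrain the other subunits, rose from 3.07 ± 0.433 to 7.19 ± 1.70 FPKM. Hif1a itself was at 8.65 ± 0.633 and 8.68 ± 0.493 FPKM (change 0.00; limma adjusted p = 0.982).

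Of 23 further hypoxia-induced genes measured, 2 rose and 4 fell. The adenylate kinase Ak4 (1.47) and Fam162a (0.65) rose, and Bhlhe40 (-2.46), Anxa2 (-1.96), Pdgfb (-1.48) and the Bnip3 relative Bnip3l (-0.67) fell. The median change of this wider list was -0.14, and that of the 10 hypoxia-induced members 0.47.

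Among 9 measured other glycolytic isoforms and regulators, 1 rose and 4 fell. Pfkfb2 (-1.20) and Pfkfb3 (-0.77), which make the activator of phosphofructokinase, fell, as did the muscle-type enzymes Pgam2 (-0.69) and Eno3 (-0.64), and Bpgm rose (0.47). Of 12 genes listed under pyruvate entry, 1 rose and 1 fell. The rise was of Slc2a8 (0.87), a glucose transporter rather than a gene of pyruvate entry, whereas Slc2a1 and Slc2a3 fell. Pdha1, a subunit of pyruvate dehydrogenase, was the 1 that fell on this list (-0.42). G6pdx, the first enzyme of the pentose phosphate pathway, rose (0.61), alone among 7 of that pathway, and Pck2 rose (1.81) among 2 measured genes of gluconeogenesis.

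Of 10 targets or partners of the stress factor ATF4, to which Ddit4 responds as well, 6 rose and 1 fell, with Chac1 (2.42), Trib3 (1.95), Nupr1 (1.60) and Atf4 itself (1.57) the largest and Atf3 (-1.33) lower. Trib3 and Chac1 varied widely in the knock-in, at 38.8 ± 25.1 and 39.6 ± 21.2 FPKM (SD, n = 3). Of 7 p53 targets, Cdkn1a fell (-1.0) and none rose. All changes in these 3 paragraphs are knock-in minus wild type on the log2 scale and passed limma's adjusted p of 0.05, apart from Hif1a.

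Markers of cell state moved with the same groups. All 5 measured epiblast markers rose, with a summed level of 452 to 590 FPKM in wild type and 1198 to 1403 in the knock-in. Of 6 primitive streak markers 4 fell, with summed levels of 426 to 627 and 102 to 138 FPKM, and all 4 measured mesoderm markers fell (43.5 to 79.3 and 10.9 to 13.4 FPKM). Of 4 measured extraembryonic ectoderm and trophoblast markers 3 fell (29.5 to 58.4 and 9.24 to 12.3 FPKM), of 5 naive pluripotency markers 2 rose and 1 fell (54.9 to 68.4 and 51.5 to 57.9), and of 2 fibroblast markers 1 rose and 1 fell. No visceral endoderm or blood marker reached a mean of 1 FPKM. The part of cell state in the changes of the 33 members was not tested, and fewer cells of a type and less RNA per cell cannot be told apart in bulk libraries.

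Wild-type replicate 2 and knock-in replicates 2 and 3 carry the same token in the names of their tables, which looks like a lane number. The labels do not say what it means, nor whether these libraries shared a run. Since the groups do not overlap at any of the 20 members past the threshold, the sign among these libraries was fixed. The size of the change alone is given: Slc2a1 was at -1.61, Slc2a3 at -2.21, Bnip3 at 2.71, Aldoc at 2.45 and Pfkl at 0.57. Other tokens were carried by 1 culture library each.

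In the embryo sections Ldha was the highest member as listed. Its lowest, median and highest values were 125.9, 391 and 626 FPKM over the 11 streak sections and 151, 285 and 373 over the 8 mesoderm sections. Pkm followed at 111, 178 and 295 FPKM in streak and 84.3, 142 and 192 in mesoderm. Aldoa, Tpi1, Pgam1 and Eno1 came next in streak with medians of 111, 93.2, 117 and 94.6 FPKM, and their ranges overlap widely. Here 10 members have near-identical copies, and most of the FPKM of some is listed under the copies. Gapdh itself holds 3.04% of its sum in heterozygous streak, where member and copies together were at 983 ± 393 FPKM (SD, n = 6) and Eno1 with its copies at 947 ± 506 (n = 6), both above Ldha with its copy (330 ± 115, n = 6). The order of these levels therefore depends on how the reads were assigned, and a sum may count some reads more than 1 time. The hypoxia-induced genes were low: Hilpda (median 11.8 FPKM in streak) and Bnip3 (11.2) led, and Egln3, Ddit4, Ankrd37 and Ero1l had streak medians of 0.530 to 1.70. As in culture, Hk2 led in heterozygous streak, at 97.7% ± 2.59 (SD, n = 6) of the Hk1 and Hk2 sum. Aldoc was again a small part of the aldolases, at 1.25% ± 1.18 (n = 6). Other pairs did not run alike. Slc16a3 was 33.4% ± 17.4 (n = 6) of its sum with Slc16a1 there and 89.0% ± 1.82 (n = 3) in wild-type cultures. Slc2a3 was 33.3% ± 15.5 (n = 6) of its sum with Slc2a1 there and 59.3% ± 1.93 (n = 3) in wild-type cultures. These differences were not tested.

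**Figure D4:**
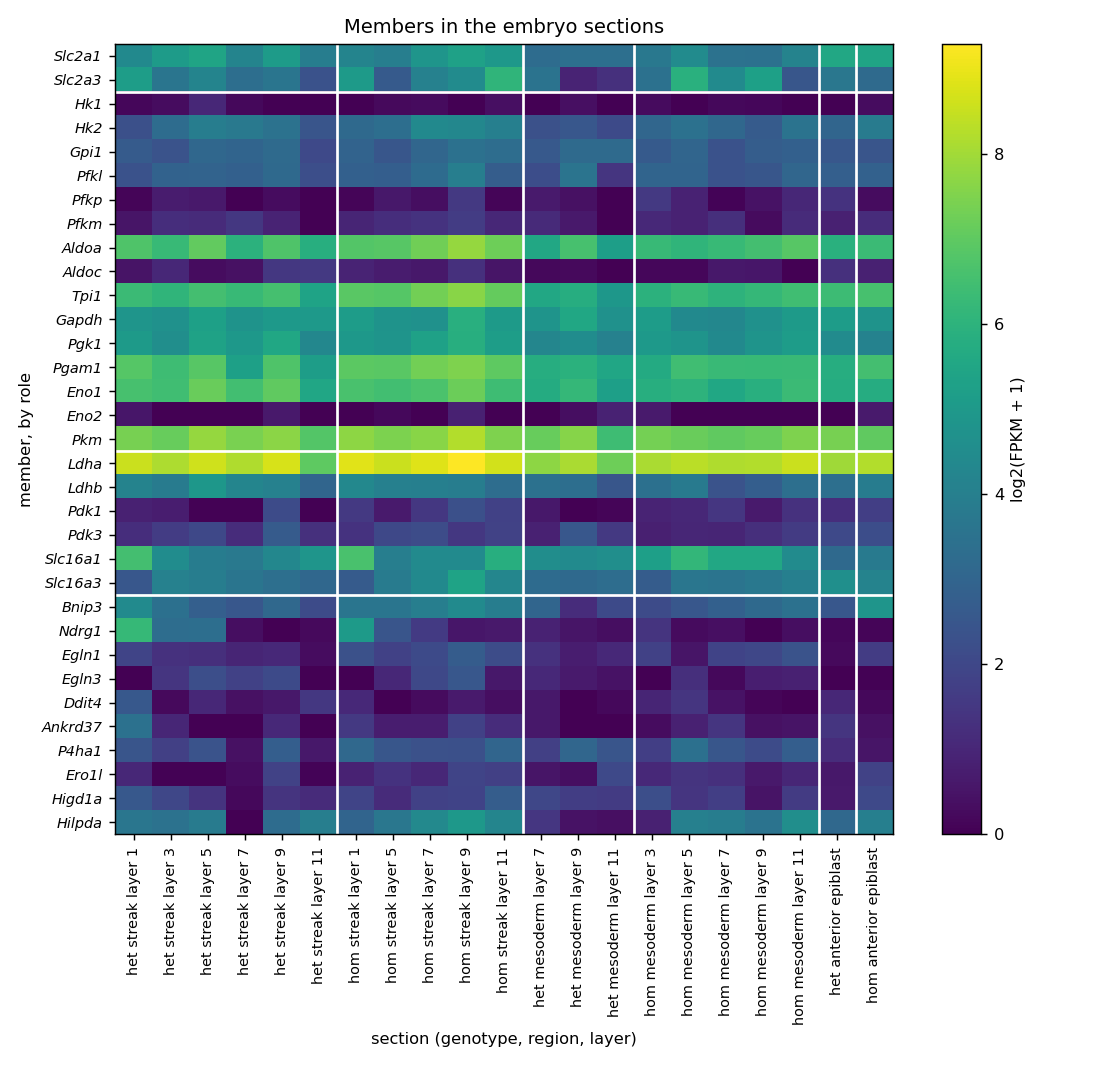
log2(FPKM + 1) of the 33 members (rows, by role) in 19 streak and mesoderm sections and 2 anterior epiblast pieces (columns, by region, genotype and layer). Ldha reaches 626 FPKM in homozygous streak layer 9, and Ndrg1 is bright only toward streak layer 1.

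Primitive streak markers separated the regions, and mesoderm markers did not. The summed primitive streak markers were at 251 to 472 FPKM in streak, 13.8 to 95.5 in mesoderm and 3.13 to 6.21 in anterior epiblast. The summed mesoderm markers overlapped, at 5.16 to 91.3 FPKM in streak and 17.7 to 114 in mesoderm. Visceral endoderm markers were present unevenly, at 0.780 to 561 FPKM over the streak and mesoderm sections, with homozygous streak layer 11 (561) and homozygous mesoderm layer 9 (363) far above the others. Blood markers summed to at most 13.4 FPKM.

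Homozygous streak sections had higher values than heterozygous ones at most members, but so did genes at large. The median change was 0.47 for the 29 members tested and 0.25 for all 9932 genes. None of the members passed the threshold, where 0.0201% of genes did, and 7 had an unadjusted p under 0.05, against 10.2% of all genes. Relative depth was 0.595 to 1.06 in heterozygous and 0.688 to 1.57 in homozygous streak. Shares of mitochondrial genes in summed FPKM were 3.92% to 5.53% and 2.25% to 3.21%, which do not overlap. The part of depth and of these shares in the shift was not tested. After each library was scaled by its median ratio to the others, the medians were 0.29 for the members and 0.04 for all genes.

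Tpi1 showed the clearest separation. It was at 41.1, 77.9 and 93.2 FPKM (lowest, median, highest) in 6 heterozygous streak sections and at 113, 135 and 201 in 5 homozygous ones, without overlap. In mesoderm it was at 29.4, 46.0 and 53.7 FPKM in 3 heterozygous sections and at 61.0, 72.2 and 86.8 in 5 homozygous ones, again without overlap. The homozygous section was higher in 8 of 8 pairs of the same region and layer, as it was for 3.2% of all genes. Over both regions its change was 0.89 ± 0.19 (limma adjusted p = 0.0259), while the median over all genes was 0.24. It was the 1 of 28 members to pass, where 1.25% of 9527 genes did and 1.13% were higher. After median-ratio scaling Tpi1 was at 0.59 (adjusted p = 0.0108), and 1.01% of all genes were then higher and 0.734% lower. The call was lost with layer as a block (0.0768), with no filter (0.0631) and without any 1 of 5 sections, which were homozygous streak layers 7, 9 and 11 and mesoderm layer 11 of either genotype (0.0532 to 0.0606). With its copy Tpi-rs11 added, Tpi1 was at 235 ± 90 FPKM (SD, n = 6) in heterozygous and 539 ± 96.8 (n = 5) in homozygous streak, and the change over both regions was 1.38 (limma adjusted p = 0.00888).

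Markers of cell state moved with genotype as well. Over both regions 4 of 6 primitive streak markers were higher and 1 lower past the threshold, with a median change of 1.60, and 3 of 6 epiblast markers were higher, with a median of 1.13. In mesoderm the summed streak markers did not overlap, at 13.8 to 41.8 FPKM in heterozygous and 74.2 to 95.5 in homozygous sections, and the summed epiblast markers were at 11.1 to 41.3 and 46.4 to 122 FPKM. In streak the summed streak markers overlapped, at 285 to 472 and 251 to 467 FPKM, as did the epiblast markers, at 37.5 to 132 and 117 to 249.8 FPKM. The part of these cell states in the values of Tpi1 and the other members was not tested.

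Several other members ran higher in the homozygous sections without passing. Over both regions, 11 of 28 members had an unadjusted p under 0.05, against 20.2% of all genes. All 11 were higher, among them Hilpda (1.70), Slc2a3 (1.37), Egln1 (0.90), Pdk1 (0.89), Hk2 (0.76) and Ldha (0.61), with limma adjusted p from 0.0680 to 0.229 for those other than Tpi1. Pgam1, Pdk1 and Egln1 were likewise higher in the homozygous section in 8 of 8 pairs. In heterozygous streak and mesoderm sections Pdk1 was at 0 to 3.35 FPKM and Egln1 at 0.225 to 2.72. Values under 1 FPKM there are limited by the unknown depth. Pgam1 was at 35, 95.3 and 117 FPKM in heterozygous streak and 119, 127 and 179 in homozygous streak, without overlap. In streak, 2 of 29 members did not overlap, against 0.745% of all genes with the homozygous group higher. In mesoderm, 4 of 23 tested members did not overlap, against 8.60% of genes.

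When the 3 sections with conflicting labels were added, 7 members passed over both regions with regions taken from the titles and 8 with regions from the cell type labels. These 3 sections, 2 heterozygous and 1 homozygous, carry other tokens of this kind in the names of their tables than the rest. The number of members called between genotypes therefore rests on which sections are counted. In the homozygous section, titled streak, the summed primitive streak markers were at 378 FPKM, within the streak range of 251 to 472. In the 2 heterozygous sections, titled mesoderm, they lay within the mesoderm range of 13.8 to 95.5 FPKM. By these markers the sections resemble the regions of their titles, so placement by cell type label likely mixes regions.

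Hilpda had the largest difference between genotypes in mesoderm. It was at 1.80, 0.366 and 0.299 FPKM in heterozygous layers 7, 9 and 11 and at 0.809, 15.4, 14.4, 10.6 and 23.0 in homozygous layers 3, 5, 7, 9 and 11. The groups overlapped through homozygous layer 3 alone, and the change was 3.11 ± 0.69 (limma adjusted p = 0.0886). It passed without that section (3.22; 0.0164) and with layer as a block (3.25; 0.0264), and was 1.68 (0.221) when the sections with conflicting labels were added with regions from the titles. The heterozygous sections so added were at 5.28 and 11.6 FPKM, and their streak markers lay in the mesoderm range. In streak Hilpda overlapped, at 0 to 14.7 FPKM in heterozygous and 7.03 to 30.4 in homozygous sections. No member passed in mesoderm, where 0.196% of 8695 genes did, and 4 of 23 members had an unadjusted p under 0.05, against 15.5% of genes. Relative depth in mesoderm was 0.392 to 0.637 in heterozygous and 0.785 to 1.29 in homozygous sections, which do not overlap. Nor do the shares of mitochondrial genes in summed FPKM, at 3.38% to 5.42% and 2.03% to 2.97%. Yam1 held 1.07% to 33.1% and 7.32% to 22.2%. The part of depth and of these shares was not tested.

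Slc2a3 and Slc16a1 followed another pattern, in which most, but not all, of the sections rich in visceral endoderm markers were high. Slc2a3 was at 67.0 FPKM in homozygous streak layer 11, 58.3 in homozygous mesoderm layer 5, 37.5 in homozygous mesoderm layer 9 and 35.1 and 32.3 in streak layer 1 of either genotype, and between 0.908 and 21.2 in the other streak and mesoderm sections. The marker sums of those 5 sections were 561, 43.0, 363, 46.7 and 47.8 FPKM. Homozygous streak layer 9, with a marker sum of 43.7, had 21.2 FPKM of Slc2a3. Slc16a1 was highest in streak layer 1, at 91.1 FPKM in the heterozygous and 97.7 in the homozygous section, then at 70.2 in homozygous mesoderm layer 5 and 56.2 in homozygous streak layer 11. In homozygous mesoderm it was at 46.4 FPKM in layer 9, with the marker sum of 363, and at 46.9 in layer 7, with a sum of 25.5. Homozygous streak layer 9 had 20.8 FPKM of Slc16a1. The unadjusted difference of Slc2a3 between genotypes in mesoderm (1.99 ± 0.81; limma adjusted p = 0.284) stands beside marker sums of 3.37 to 10.8 FPKM in the heterozygous and 7.31 to 363 in the homozygous sections, and the part of these cells was not tested.

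**Figure D5:**
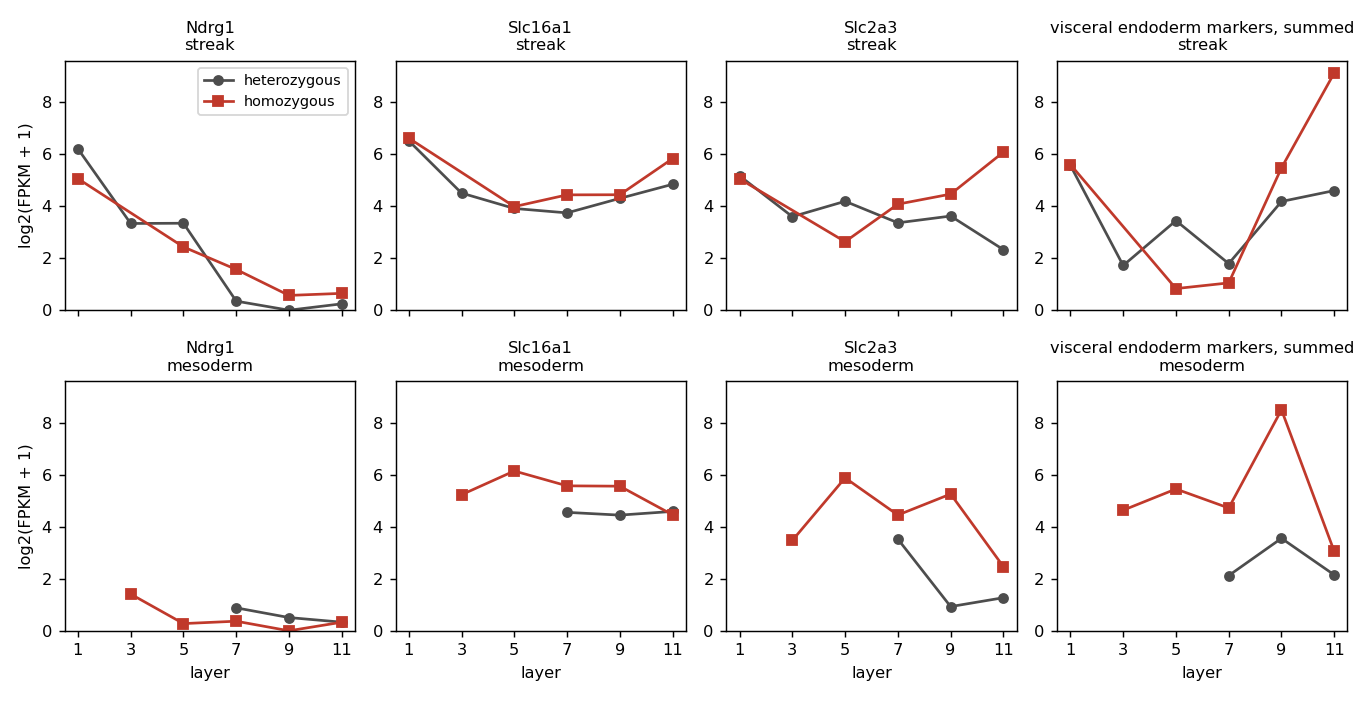
log2(FPKM + 1) of Ndrg1, Slc16a1, Slc2a3 and the sum of 10 visceral endoderm markers by layer number, in streak (top) and mesoderm (bottom), for 1 section per point. Ndrg1 falls from layer 1 to layer 11 in streak of both genotypes, while Slc16a1 and the marker sum are high in streak layer 1 and again in homozygous streak layer 11.

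Ndrg1 changed along the streak. In heterozygous sections of layers 1, 3, 5, 7, 9 and 11 it was at 73.3, 9.12, 9.19, 0.274, 0 and 0.185 FPKM. In homozygous layers 1, 5, 7, 9 and 11 it was at 32.5, 4.41, 1.97, 0.483 and 0.567 FPKM. It fell in both genotypes, by 0.54 ± 0.07 on the log2 scale per layer (limma adjusted p = 0.00473), and was the 1 of 29 members to pass, where 0.0805% of 9932 genes did. The call was kept without either layer 1 section (0.0482 and 0.0428) and lost without both, where the slope was -0.42 per layer (adjusted p = 0.402). It was also lost with no filter (0.0751). In mesoderm, where no section comes from layer 1, Ndrg1 was at 0 to 1.66 FPKM. The overlapping Gm17035 was listed at 0 or below 1e-05 FPKM in the sections.

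Other members had values in streak layer 1 at or near the ends of the range over streak sections. Ankrd37 was at 10.0 FPKM in heterozygous layer 1 but at 1.94 in homozygous layer 1, second to homozygous layer 9 among the other streak sections (0 to 2.47). Slc16a3, which carries lactate out, was at 4.75 and 5.41 FPKM in layer 1 and between 7.66 and 40.8 in the other streak sections. Slc16a3 made up 4.95% and 5.25% of the Slc16a1 and Slc16a3 sum in layer 1, the lowest of each genotype. None of these 3 genes had a layer trend past the threshold (limma adjusted p = 0.384 for Ankrd37, 0.397 for Slc16a3 and 0.447 for Slc16a1). Visceral endoderm markers summed to 46.7 and 47.8 FPKM in these 2 sections, and extraembryonic ectoderm and trophoblast markers to 5.81 and 3.11 FPKM. In mesoderm no member had a layer trend past the threshold or at an unadjusted p under 0.05, against 0.0115% and 4.86% of 8695 genes.

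Mesoderm sections had lower values than streak sections at most members, within 7 pairs of the same genotype and layer. The median change was -0.44 for 26 members and -0.34 for all 9146 genes. Tpi1 (-0.84 ± 0.18), Eno1 (-0.69 ± 0.19) and Aldoa (-0.66 ± 0.18) fell past the threshold, with limma adjusted p of 0.0203, 0.0455 and 0.0435, and were lower in mesoderm in 7 of 7 pairs, as were 11.9% of all genes. When 1 section was left out in turn, the call of Aldoa was lost in 14 of 14 fits (0.0518 to 0.135), that of Eno1 in 13 (0.0505 to 0.143) and that of Tpi1 in 3 (0.0526 to 0.0829), which left out homozygous mesoderm layer 7 or homozygous streak layer 7 or 9. Without 1 section of a pair, the other no longer bears on the region difference. The 14 fits thus amount to leaving out each of the 7 pairs and are not 14 separate checks. With copies added, 7 members passed. Among all genes 8.62% passed, and 8.04% of all genes were lower. After scaling each library by its median ratio no member passed and Tpi1 was at -0.40 (adjusted p = 0.230), and among all genes 0.313% were then lower and 0.391% higher. Slc2a1 was at 14.2, 28 and 42.2 FPKM in streak and 8.77, 10.2 and 21.3 in mesoderm (-0.95 ± 0.28; limma adjusted p = 0.0530).

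The 2 anterior epiblast pieces had Slc2a1 at 46.9 FPKM (heterozygous) and 42.5 (homozygous), both above the 11 streak sections (14.2 to 42.2), and Slc16a1 at 8.00 and 13.0, the first below all streak sections (12.4 to 97.7). Slc2a3 was at 11.7 and 8.16 FPKM there and Ndrg1 at 0.113 and 0.0866. Against streak none of 28 members passed (0.406% of 9854 genes did), and 2 had an unadjusted p under 0.05, against 9.88% of genes: P4ha1 (-1.33 ± 0.58; limma adjusted p = 0.464) and Eno1 (-0.84 ± 0.38; 0.480). The difference between genotypes did not itself differ past the threshold between streak and mesoderm for any of 28 members, nor at an unadjusted p under 0.05, and 3.54% of 9527 genes reached the latter. For Tpi1 that interaction was -0.22 ± 0.41, and for Hilpda 1.88 ± 1.03 (unadjusted p = 0.0838).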

How the data were processed

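Per the file headers, the authors deposited 1 table of FPKM per library with an interval for each value. The submitters' processing notes name CASAVA, TopHat2 2.0.11 and the build mm10. The counting tool and its use of strand are not given in the sources used here. Gene positions of the section tables match mm10, and those of the culture tables do not, so positions come from the section tables. Values of an identifier on more than 1 row were added, and values under 1e-06 FPKM were set to 0. FPKM keep no unit of 1 read common to all genes, so no count model was run and no counting interval is given.

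Genes averaging 1 FPKM or more across the compared libraries were tested as log2(FPKM + 1) with limma 3.58.1 in R 4.3.3, two-sided, with Benjamini-Hochberg adjustment over all genes tested. Layer entered the genotype comparisons as a number. Regions were compared within pairs of one genotype and layer. Members failing the filter stay untested: 5 of 33 over both regions, which are Hk1, Pfkp, Aldoc, Eno2 and Ddit4. Near-identical copies were found with BLAST 2.17.0 among GENCODE M21 transcripts. Simulated data held 100 genes changed by a log2 of 1, 100 by a log2 of 2 and no change in the rest. On these the culture fit recovered 48 and 92, and the mesoderm genotype fit 0 and 17. In the real cultures 32.4% of genes passed, so 48 and 92 do not give the recovery there. The alternatives tried were another pseudocount, no filter or a stricter one, median-ratio scaling, removal of Yam1 and mitochondrial genes, blocks, other uses of the conflicting sections, copies added (chosen after seeing the data) and each library left out. All members could be named, and other genes only if past the threshold, up to 4 per list, comparison and direction, with Hif1a, Bnip3 and Tpi1 copies and Gm17035 added after their values were seen. The members and lists were chosen with earlier results of these data known.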

Additional observations from a re-analysis of the deposited data

Results flagged for a closer look

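In the groups of 4 to 10 sections, each member with a group median of at least 1 FPKM was examined for a section far from the others of its group on the log2(FPKM + 1) scale, and 4 of 77 such sets had one. Chance flags about 1 in 20. Ldha in heterozygous streak layer 11 was at 125.9 FPKM, against 283 to 419 in the other 5 sections. Hilpda in heterozygous streak layer 7 was listed at 0 FPKM, against 8.71 to 14.7. Hilpda in homozygous mesoderm layer 3 was at 0.809 FPKM, against 10.6 to 23.0 in the other 4 sections. Pgam1 in homozygous mesoderm layer 3 was at 49.9 FPKM, against 75.3 to 85.1.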

How the results depend on the processing

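In the cultures 17 to 21 members passed under every alternative run, with 2 lower in each, and 18 passed with the replicate block. Deviations of same-numbered cultures had correlations of -0.12, -0.05 and -0.05. With 3 libraries per group these cannot tell whether the numbers pair anything, and the labels do not say. Leaving out 1 library gave 17 to 21 members in the cultures, 0 to 3 over both regions between genotypes, 0 to 1 in mesoderm between genotypes, 0 to 3 between regions and 1 in the streak layer trend. Over both regions, 0 members passed with layer as a replicate block or with no filter, 2 with copies added, 7 with conflicting sections placed by title and 8 by label. In mesoderm 1 member passed with that block. Sections of the same layer correlated in their deviations at 0.48 in streak layer 1, 0.02 to 0.07 in the other streak layers and 0.01 to 0.04 in mesoderm. For the streak layer trend 0 passed with layers 3 to 11 only or with no filter. Between regions, 0 passed after median-ratio scaling, after Yam1 and mitochondrial genes were removed, with no filter, with conflicting sections placed by label, and in heterozygous or homozygous pairs only. There 6 passed at a mean of at least 5 FPKM, 7 with copies added, 7 with no replicate block over all sections and 12 with conflicting sections placed by title. By their streak markers the conflicting sections resemble the regions of their titles, so the counts by label likely mix regions. Median-ratio scaling turned the region difference of Ldha (0.0387) and Pkm (0.0578) positive. Other than in the alternatives made of fewer sections or genes, the cause was not tested. Depth is unknown, which limits every value under 1 FPKM.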
